A study of Homo sapiens with 6 samples.

Results

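The boundaries described here are the borders of topologically associating domains (TADs) that were listed in LNCaP cells with control siRNA and had no counterpart in the list made after CTCF siRNA. In each list, facing edges of consecutive TADs at most 100 kb apart were joined into 1 boundary, and any other TAD edge was a boundary of its own. A control boundary was lost when no CTCF siRNA boundary lay within 40 kb of it, and maintained otherwise, so the lost boundaries were chosen by the 2 TAD lists themselves. On the autosomes, 1569 of 3337 control boundaries were lost (47.0%, 95% Wilson interval 45.3 to 48.7%) and 1768 were maintained. The CTCF siRNA list held 2783 autosomal boundaries. LNCaP is an established, androgen-responsive prostate cancer cell line derived from a lymph node metastasis. The cells received 20 nM of a non-targeting siRNA pool or 20 nM of a pool of 4 siRNAs against CTCF, with a second transfection midway, and were collected after 144 h for Hi-C, which counts ligated pairs of DNA fragments cut with BglII. The libraries of a condition, 2 for control and 4 for CTCF siRNA, were pooled by the authors into 1 contact map and 1 TAD list, so no value below has a replicate check and no test between the conditions was possible.

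CTCF is a zinc finger protein that binds an asymmetric DNA motif and stops cohesin, the ring complex that extrudes chromatin loops. TADs are stretches of chromosome that contact themselves more often than neighbouring stretches. At many TAD borders CTCF motifs point away from the border, each into its own TAD, and contacts across the border are fewer than within the flanks. When CTCF is depleted, such borders are known to weaken, whereas active promoters and changes of chromatin state can also mark borders.

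To show the sequence at the lost boundaries, matches to the CTCF core consensus were read from GRCh37 (hg19) on both strands, in a window of the boundary and 1 bin of 40 kb on each side. At least 1 match lay in 829 of 1569 lost windows (52.8%) and in 1004 of 1768 maintained windows (56.8%), against 33.2% of 59714 windows of the same kind around all usable autosomal bins. A total of 6 matches are shown as examples, from 3 of the 12 lost boundaries named further on for their change in insulation. These 3 were picked after their matches were seen, to show both strands, joined and free edges, and windows with and without a gene. The first 3 lay at the touching edges listed at position 110740000 of chromosome 6, between DDO and SLC22A16. The next pair lay at the touching edges at position 41140000 of chromosome 18, with no protein-coding gene in the window, and the last lay at a single TAD start at position 81900000 of chromosome 16, in PLCG2. Each is written 5′ to 3′ on its own strand with the matched core in capitals.
chr6:110719409-110719460, minus strand, DDO intron: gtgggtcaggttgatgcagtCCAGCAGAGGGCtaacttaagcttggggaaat
chr6:110778940-110778991, plus strand, SLC22A16 intron: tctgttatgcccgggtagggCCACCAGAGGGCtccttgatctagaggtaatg
chr6:110782591-110782642, minus strand, SLC22A16 intron: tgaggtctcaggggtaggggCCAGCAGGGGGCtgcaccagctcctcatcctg
chr18:41167689-41167740, minus strand, intergenic: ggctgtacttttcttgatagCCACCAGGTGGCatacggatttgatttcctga
chr18:41176245-41176296, minus strand, intergenic: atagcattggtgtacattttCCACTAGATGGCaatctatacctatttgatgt
chr16:81924124-81924175, plus strand, PLCG2 intron: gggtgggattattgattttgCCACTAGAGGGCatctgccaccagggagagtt
On chromosome 6 the minus-strand match 20.6 kb before the listed edge and the plus-strand match 39.0 kb after it pointed away from each other, the arrangement described above for TAD borders. The third match there, on the minus strand 42.6 kb after the edge, and both on chromosome 18, on the minus strand 27.7 and 36.3 kb after the edge, pointed the other way. A match is a description of the letters and not a measured binding site. Of the 8 joined boundaries with the largest change, the 5 on chromosomes 2, 5, 8, 12 and 13 had no match in the window, and an absent match says only that these letters were not found there.

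The strand of the matches was ordered around lost boundaries as it was around maintained ones. From 60 to 20 kb before the listed edge, lost boundaries held 2.68 minus-strand and 1.31 plus-strand matches per Mb, and from 20 to 60 kb after it 2.41 minus-strand and 4.56 plus-strand matches per Mb. At maintained boundaries the values were 3.63 and 1.82 before the edge, and 2.56 and 4.81 after it. The crossing point of the strands lay about 20 kb after the listed edge in both classes. Taken from that point, within 100 kb on each side, 1093 of 1677 matches at lost boundaries pointed away from it (65.2%, 62.9 to 67.4%) and 1402 of 2170 at maintained boundaries (64.6%, 62.6 to 66.6%). The intervals of these shares overlapped. A minus-strand match before the point together with a plus-strand match after it was found at 134 lost boundaries (8.54%, 7.26 to 10.03%) and at 202 maintained ones (11.4%, 10.03 to 13.0%). Farther out, lost boundaries held 1.90 plus-strand and 1.77 minus-strand matches per Mb from 400 to 200 kb before the edge, and 1.85 and 1.87 from 200 to 400 kb after it.

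**Figure D1:**
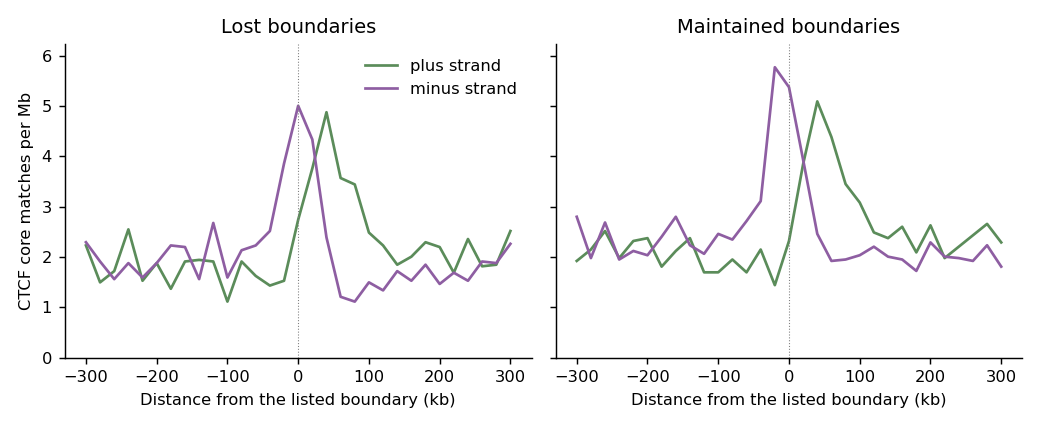
Matches to the CTCF core consensus per Mb on the plus and minus strand, in steps of 20 kb around lost (left) and maintained (right) boundaries, against the distance from the listed boundary. In both classes the minus strand peaks at or before the listed edge and the plus strand about 40 kb after it.

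The contact files listed 26174664 read pairs for control siRNA and 87657174 for CTCF siRNA, of which 52.2% and 64.2% joined places on the same chromosome. The part of this difference in depth in the TAD lists, and so in the share lost, was not tested. No bin before position 9400001 was listed on any chromosome, and some later positions were absent as well, so 122 lost and 211 maintained boundaries stood at unlisted positions. In all, 1409 lost and 1468 maintained boundaries had an insulation value, and the others were counted but not measured. The insulation value compares contacts that cross a position with contacts inside its flanks of 400 kb. Each was taken as the ratio of observed to expected, the first ratio was divided by the second, and the log2 was used, so that a lower value means fewer contacts across. Expected contacts were the mean of the chromosome at the same distance. Bins with under 10% of the median count of their chromosome in either map were left out, and the rest are called usable.

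Lost boundaries had a median insulation value of -0.76 (-0.79 to -0.72, 95% interval over boundaries, n = 1409) in control siRNA and -0.13 (-0.15 to -0.11) in CTCF siRNA. The second value lay closer to the median of all usable bins, 0.08. Contacts across alone stood at a median of 0.63 of expectation (0.61 to 0.64) in control siRNA and 0.79 (0.76 to 0.81) in CTCF siRNA, so they remained below expectation, and the flanks, described further on, also entered the change. The change had a median of 0.59 on the log2 scale (0.57 to 0.62). The value was higher in CTCF siRNA at 1334 of 1409 lost boundaries (94.7%), against 52.4% of all usable autosomal bins. It was higher by at least 0.5 at 843 lost boundaries (59.8%), against 12.8% of all 58287 usable bins. Among 29064 bins that lay 5 bins or more away from every boundary of both conditions, the share was 4.81%. These shares describe the same contrast that selected the boundaries, so nothing is read from them. Only 3 lost boundaries had a value lower by at least 0.5.

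Maintained boundaries, which the rule kept because a border was still listed, also had higher insulation values after CTCF siRNA. Their median went from -1.07 (-1.11 to -1.03, n = 1468) to -0.66 (-0.68 to -0.63), a change of 0.35 (0.33 to 0.38), and 545 of them were higher by at least 0.5 (37.1%, beside 12.8% of all bins). These positions were all chosen as borders in the control map, which favours low control values and so a rise in the CTCF siRNA map. The bins set beside them were not chosen in this way. The part of this choice in the rise was not tested, so no weakening is read from it. In control siRNA, lost boundaries were already the weaker class. When control boundaries were divided into 5 equal groups by their control insulation value, 28.0% of the most strongly insulated group was lost, then 39.7%, 50.1%, 59.5% and 67.7% of the weakest group. Of the lost boundaries with a value, 929 had an insulation value below 0 in CTCF siRNA (65.9%), against 97.2% of the maintained ones. All usable bins in that map had a median of 0.08 and a lower quartile of -0.22, so values below 0 were common among them too. A value below 0 is therefore not read as a border that remained.

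**Figure D2:**
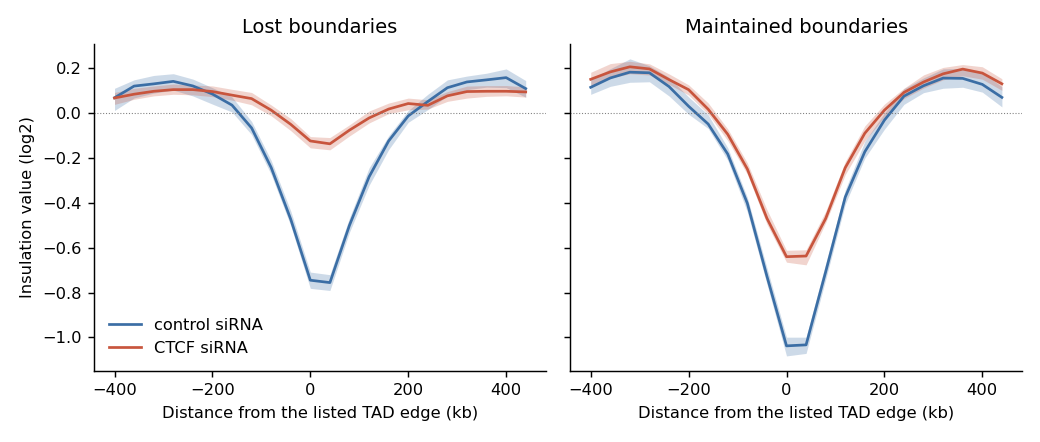
Median insulation value (log2) against the distance from the listed TAD edge for lost (left) and maintained (right) boundaries with touching edges or a single edge, in control siRNA and CTCF siRNA; bands are 95% intervals over boundaries. The dip of the control map is nearly flat in CTCF siRNA at lost boundaries and shallower, but present, at maintained ones.

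**Figure D3:**
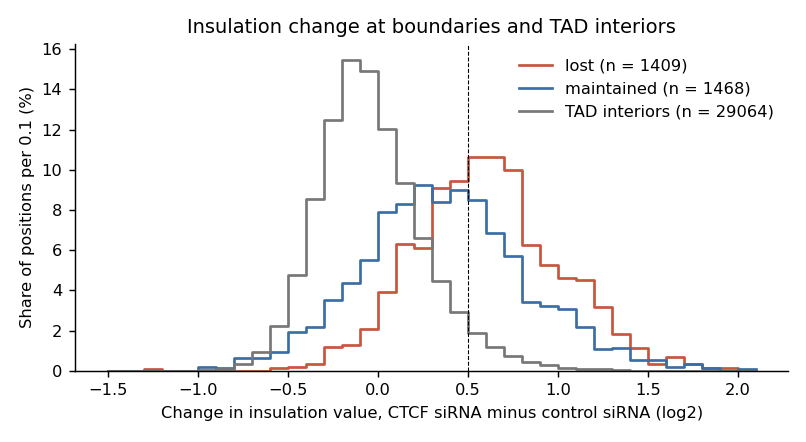
Distribution of the change in insulation value (log2, CTCF siRNA minus control siRNA) at lost boundaries, maintained boundaries and TAD interiors, as the share of positions per step of 0.1; the dashed line is a change of 0.5. The distribution of lost boundaries lies farthest to the right, with medians of 0.59, 0.35 and -0.07.

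The distance threshold separated neighbouring cases without a step in insulation. The nearest CTCF siRNA boundary lay at a median of 320 kb from a lost boundary, at 80 kb, the smallest possible distance, for 157 of them, within 200 kb for 521 (33.2%), and beyond 1000 kb for 168 (10.7%). Just inside the limit, maintained boundaries with the nearest boundary 40 kb away had a median change of 0.37 (0.30 to 0.44, n = 374) and a CTCF siRNA value of -0.57. Just outside it, lost boundaries with the nearest 80 kb away had a change of 0.49 (0.39 to 0.58, n = 138) and a value of -0.50. At lost boundaries with the nearest beyond 1000 kb, the CTCF siRNA value was -0.04 (n = 156).

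Facing edges, where a TAD ends as the next begins, made up 929 of the lost boundaries (59.2%, 56.8 to 61.6%) and 1260 of the maintained ones (71.3%, 69.1 to 73.3%). Among the lost, 741 had touching edges, 125 had edges 40 kb apart and 63 had edges 80 kb apart. The free edges, which border a stretch with no listed TAD, were 285 TAD starts and 355 TAD ends. Of all facing boundaries, 42.4% were lost (40.4 to 44.5%), of free starts 49.7% (45.6 to 53.7%), and of free ends 61.8% (57.8 to 65.7%). Free ends were thus lost more often than free starts, with intervals that did not overlap. Starts and ends differ only in the direction of the coordinates. The part of the TAD calling and of the placement of listed edges in this contrast was not tested. Facing lost boundaries were the more insulated in control siRNA, at -0.84 against -0.63 for free edges, and had the larger change, 0.69 (0.67 to 0.72, n = 839) against 0.47 (0.43 to 0.49, n = 570). This order was not particular to lost boundaries. At maintained ones the control values were -1.16 and -0.80 and the changes 0.42 and 0.14.

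Spacing and TAD length differed little between the classes. The next control boundary lay at a median of 400 kb from a lost boundary (360 to 400 kb) and 440 kb from a maintained one. The flanking TADs had a median length of 720 kb in both classes. At facing lost boundaries the shorter TAD had a median of 520 kb and the longer 1040 kb, beside 520 and 1000 kb at maintained ones. The share lost was 46.4% where the shorter flanking TAD was at most 400 kb and 52.9% (46.4 to 59.3%) where it was 1500 kb or more. The next boundary along the chromosome was lost after 46.3% of lost boundaries (43.8 to 48.8%) and after 48.1% of maintained ones (45.8 to 50.4%). By chromosome, the share lost went from 28.6% of 70 boundaries on chromosome 19 to 59.7% of 211 on chromosome 4.

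In the CTCF siRNA list, 1446 lost boundaries lay inside 1 TAD (92.2%) and 123 lay between TADs (7.84%). Of all control boundaries 45.2% lay between TADs, and of maintained ones 78.4%. By the rule a lost boundary is over 40 kb from every CTCF siRNA boundary, so a place inside a TAD is favoured in advance. The share over other positions that far away was not computed, so nothing is read from the 92.2%. For 1093 lost boundaries (69.7%) the TAD that covered them also held the middle of every flanking control TAD. The share was 36.1% of all control boundaries and 6.22% of maintained ones. A maintained boundary has a CTCF siRNA boundary within 40 kb. At a facing one the rule therefore keeps a covering TAD from holding both middles (0 of 1260), so nothing is read from this contrast. Of the 1093, 571 were facing boundaries, where the covering TAD held the middles of the TADs on both sides. The other 522 were free edges, where it held the middle of the only flanking TAD and no TADs were joined across the boundary by this measure. For 353 (22.5%) the middle of at least 1 flanking TAD lay outside it. The share with every flanking middle held was 81.6% of the 640 free edges and 61.5% of the 929 facing boundaries, which is not a like comparison because a free edge has a single TAD to hold. The change in insulation was 0.57 (0.54 to 0.61) where every flanking middle was held, 0.66 (0.60 to 0.72) where at least 1 was not and 0.59 (0.49 to 0.70) at boundaries left between TADs. The intervals of these 3 overlapped at least in part.

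The 1446 covered boundaries were held by 996 of 2308 CTCF siRNA TADs. These had a median length of 1200 kb, while the 1312 TADs that held none had a median of 600 kb. A longer TAD has room for more positions of any kind, so this contrast follows from how the TADs were sorted. A single lost boundary was held by 675 TADs, 2 by 234, and 6 or more by 3. The TAD with most lost boundaries ran from 59500000 to 73300000 on chromosome 13, a length of 13800 kb, and held 8. The longest run of consecutive lost boundaries overlapped it: 11 from 55820000 to 71180000 on chromosome 13, over 15.36 Mb that hold 14 protein-coding genes. All 11 had a higher insulation value in CTCF siRNA, with changes between 0.27 ± 0.26 and 1.87 ± 0.34 (counting SD) and a median of 0.82. At 5 of the 8 inside the large TAD, however, contacts across were lower relative to expectation in CTCF siRNA. At 64700000, for instance, they were 115 with 214 expected against 270 with 805 expected. In these counts, which were not evened out for coverage, the rise at those 5 thus came from the flanks. The windows of the 11 had 33.1 to 38.6% GC, below the median of 40.4% for lost boundaries. The next longest run was 10 boundaries over 11.4 Mb of chromosome 4. At boundaries of low GC the CTCF siRNA map had fewer contacts per bin, as given further on. The part of this in the TAD calls, and in the values across and in the flanks, was not tested.

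Which contacts accounted for the change depended on the treatment of coverage. In recovered counts, contacts across lost boundaries were higher by a median of 0.42 (0.38 to 0.47) on the log2 observed over expected scale, the same as at maintained boundaries, 0.42 (0.38 to 0.45). The difference lay in the flanks. Contacts within the upstream flank were lower by a median of -0.17 (-0.22 to -0.13) and within the downstream flank by -0.22 (-0.26 to -0.16) at lost boundaries, and were higher, by 0.07 and 0.09, at maintained ones. After iterative balancing, which evens out coverage between bins, contacts across were higher by 0.46 at lost and 0.27 at maintained boundaries, and the flanks changed by -0.07 and -0.08 at lost and by -0.02 and -0.04 at maintained ones. The insulation change itself, a ratio of the 2 parts, was 0.56 with balanced counts and 0.30 at maintained boundaries.

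At free edges, the side of the TAD and the side of the gap changed alike, by -0.11 (-0.18 to -0.05, n = 567) and -0.14 (-0.24 to -0.09, n = 564). The TAD side's value changed more in the upward direction, which at these medians mostly means the smaller fall, at 289 of 561 lost free edges (51.5%, 47.4 to 55.6%). At facing boundaries the shorter TAD's flank changed by -0.21 and the longer one's by -0.25, and the shorter side was ahead at 427 of 812 (52.6%, 49.1 to 56.0%). The intervals of both shares included 50%.

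The reach of an edge was measured as contacts between the 3 bins next to the boundary on a side and the 400 kb beyond the boundary. The side difference, the change of the upstream edge's reach minus that of the downstream edge's, had a median of 0.08 (0.06 to 0.10, n = 1404) with the boundary at the listed bin. Insulation and CTCF matches were however symmetric about a point some 20 kb later, and with the boundary placed there, a setting chosen after seeing the data, the median was 0.01 (-0.02 to 0.03, n = 1405). Neither edge was therefore ahead on that placement. The side difference went with the place of the nearest CTCF siRNA boundary. Where that boundary lay upstream, the upstream edge had gained more, by a median of 0.16 (0.14 to 0.20, n = 683) at the listed bin and 0.09 (0.06 to 0.13, n = 685) 20 kb later. Where it lay downstream, the values were -0.01 (-0.04 to 0.02, n = 721) and -0.08 (-0.12 to -0.05, n = 720). The edge that gained more reach was on this placement the one on the side of the nearest CTCF siRNA boundary, at 63.1% of lost boundaries with the nearest upstream, and since those boundaries come from the same map this is a description. It was not particular to lost boundaries, since maintained ones with a CTCF siRNA boundary 40 kb upstream or downstream had medians of 0.18 (0.13 to 0.27, n = 183) and -0.09 (-0.16 to -0.05, n = 184) on the same placement. At facing lost boundaries the edge of the shorter TAD gained more, by 0.05 (0.02 to 0.08) at the listed bin and 0.06 (0.04 to 0.09) 20 kb later, beside 0.03 (-0.01 to 0.06) and 0.04 (0.01 to 0.06) at maintained ones. At free lost edges the TAD's edge was ahead of the gap's by 0.06 (0.02 to 0.08) at the listed bin and 0.01 (-0.02 to 0.04) 20 kb later, while at maintained free edges it was ahead by 0.12 and 0.10.

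Lost boundaries were poorer in genes than maintained ones. Their windows held 9.87 protein-coding gene starts per Mb (1952 in 197.9 Mb), maintained ones 15.5, and windows around all usable bins 6.88. Of control boundaries with no gene start in the window, 60.2% were lost (57.2 to 63.1%), of those with 1 or 2 44.5% (42.1 to 47.1%), and of those with 3 or more 33.6% (30.4 to 37.1%). CTCF core matches differed less, with 6.13 per Mb at lost, 6.997 at maintained and 3.78 in all usable windows. At facing edges they were fewer at lost boundaries, 6.09 against 7.35 per Mb, and at free edges they were not, 6.18 against 5.98. The share lost was 49.2% with no match and 41.2% with 2 or more. Gene starts separated the classes by a wider margin than core matches did.

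GC content went with both. Lost windows had a median of 40.4% GC (40.1 to 40.7%), maintained ones 42.0% and usable bins 39.6%. In 5 equal groups of control boundaries from lowest to highest GC, 60.6%, 50.7%, 41.5%, 42.0% and 40.3% were lost. Within each of these groups lost windows held fewer gene starts per Mb than maintained ones, from 3.57 against 6.52 in the lowest group to 21.1 against 27.3 in the highest. Core matches were fewer at lost boundaries in the 4 lower groups, 3.97 against 4.45 in the lowest, and not in the highest, 10.7 against 10.2. Across the same groups the median count of contacts within the chromosome per boundary bin was 375.5, 353.5, 335, 332 and 361.5 in control siRNA and 843.5, 1140.5, 1432, 1892 and 2339 in CTCF siRNA. The CTCF siRNA libraries thus had a coverage that rose with GC, and its part in the loss of boundaries of low GC was not tested. The insulation change at lost boundaries was larger than at maintained ones in every GC group, from 0.64 against 0.54 in the lowest to 0.51 against 0.24 in the highest. The rule told the classes apart with TAD lists of the same maps, which favours this order in any group. Nothing about coverage is read from it.

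**Figure D4:**
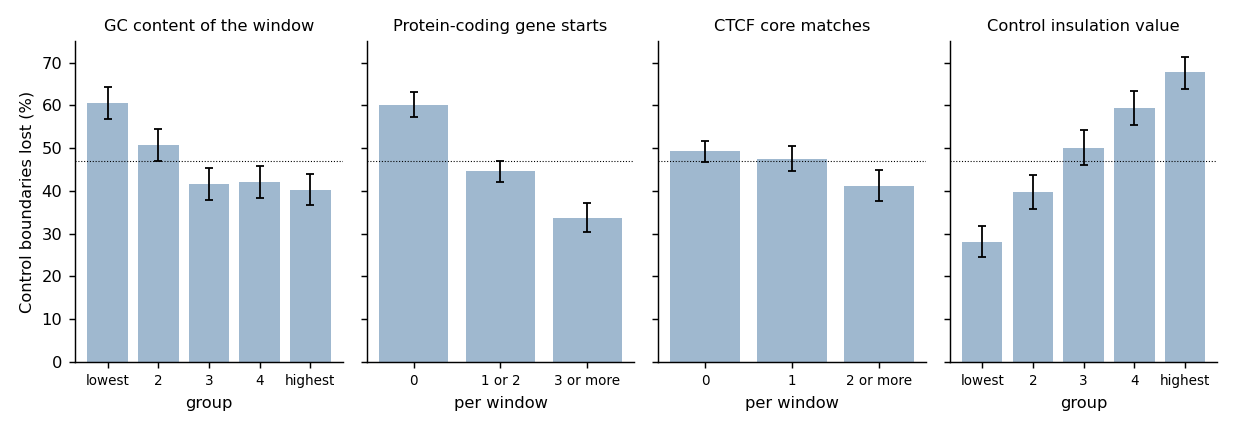
Share of control boundaries that were lost (%), with 95% Wilson intervals, by GC content of the window, protein-coding gene starts, CTCF core matches and control insulation value; the dotted line is the share over all autosomal control boundaries, 47.0%. The share falls from 60.2% to 33.6% with the number of gene starts and rises from 28.0% to 67.7% from the most to the least insulated boundaries.

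Starts of gene families were counted at both classes, beside 10.2% of all 19222 protein-coding genes at lost and 18.1% at maintained boundaries, with no test of a difference. Ribosomal protein genes started at lost boundaries in 9 and at maintained ones in 34 of 76 cases (11.8% and 44.7%), so the share at lost boundaries was near that of all genes. Histone genes, most of them in a few clusters that share boundaries, did so in 1 and 33 of 77. HOX genes, the body-plan regulators, lay at lost boundaries in 6 and at maintained ones in 18 of 39 cases. Of 414 olfactory receptor genes, 43 started at lost boundaries (10.4%, near the share of all genes) and 23 at maintained ones (5.56%). The counts at lost and maintained boundaries were 32 and 47 of 503 zinc finger genes, 3 and 2 of 63 protocadherin genes, and 0 and 4 of 50 keratin genes. As for all protein-coding genes, most starts of these 3 families lay in no boundary window. Genes of a cluster share windows, so these counts are not independent.

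Among 39 androgen-regulated and prostate genes, 5 started at lost and 7 at maintained boundaries (12.8% and 17.9%, near the 10.2% and 18.1% of all protein-coding genes). SORD, which encodes sorbitol dehydrogenase, started in the window of a free TAD start at 45300000 on chromosome 15, with a change of 0.83 ± 0.11 (counting SD). SLC45A3, a prostate-specific transporter gene, and its neighbour ELK4, a transcription factor gene, shared the boundary at 205660000 on chromosome 1, which went from -1.28 ± 0.10 to -0.77 ± 0.04 and thus stayed well below 0. HERC3 had a change of 0.55 ± 0.12. These 3 boundaries had more contacts across relative to expectation, and the CTCF siRNA TAD that covered each also held the middle of every flanking TAD, of which the free edge of SORD had only 1.

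Of 42 genes of architectural proteins, 3 started at lost and 9 at maintained boundaries (7.14% and 21.4%, beside 10.2% and 18.1% of all genes). ZFP57, a zinc finger gene of imprinting control, had a change of 1.105 ± 0.18, while PATZ1 and PDS5A, a regulator of cohesin, had changes of 0.20 ± 0.13 and 0.12 ± 0.12, within 2 counting SD of 0. Of 44 prostate cancer genes, 2 started at lost boundaries and 11 at maintained ones (4.55% and 25%, beside the same shares of all genes). Among them was RAD51B, a DNA repair gene with a CTCF siRNA boundary 80 kb away. Its insulation value went from -2.004 ± 0.15 to -1.43 ± 0.06, a change of 0.58 ± 0.16, and was still below the maintained boundaries' median of -0.66 in the CTCF siRNA map.

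Of the boundaries with the largest rise in insulation value, 1 per chromosome and with at least 50 contacts expected across in control siRNA, the first lay at 110740000 on chromosome 6, between DDO, which encodes D-aspartate oxidase, and SLC22A16, a carnitine transporter gene. Contacts across were 116 with 347 expected in control siRNA, a ratio of 0.33 (0.28 to 0.40, exact Poisson interval), and 1829 with 1297 expected in CTCF siRNA, a ratio of 1.41 (1.35 to 1.48). The insulation value went from -1.95 ± 0.14 to 0.03 ± 0.04. Contacts across were thus far below expectation in the first map and above it in the second. The CTCF siRNA TAD that covered it ran from 110420000 to 111260000. The 3 CTCF core matches printed above for chromosome 6 are those of this window.

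The other 7 joined boundaries had changes between 1.68 ± 0.14 and 1.87 ± 0.34. They lay at 71180000 on chromosome 13 and 180940000 on chromosome 2, at SYT1, the synaptic calcium sensor gene, on chromosome 12 (79740000), at KCNMB2, a potassium channel subunit gene, on chromosome 3 (178100000), at the cadherin gene CDH12 on chromosome 5 (21780000), at 41140000 on chromosome 18, and in a window with SULF1 and SLCO5A1 on chromosome 8 (70540000). At the boundary of CDH12, contacts across were 59 with 424 expected in control siRNA and 375 with 1596 expected in CTCF siRNA, ratios of 0.14 (0.11 to 0.18) and 0.23 (0.21 to 0.26). Contacts within both of its flanks were lower in CTCF siRNA, by -0.99 and -0.98 on the log2 scale. In these counts, not evened out for coverage, the change there thus lay mostly in the flanks. At the boundary of SULF1, which encodes a heparan sulfate sulfatase, the ratio went from 0.33 (0.28 to 0.40) to 0.89 (0.84 to 0.94) and the flanks by -0.23 and -0.29, so there it lay mostly across. The window of CDH12 had 34.0% GC and that of SULF1 40.8%. Both flanks were also lower on chromosomes 2, 3, 12, 13 and 18, by between -0.60 and -1.47, in windows of 33.5 to 37.0% GC. Contacts across were higher there too, from 0.11 to 0.17 of expectation on chromosome 13 and from 0.36 to 0.71 on chromosome 3. The part of coverage in these values was not tested.

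Among free edges, the end of the TAD at 165380000 on chromosome 2, in GRB14, an adaptor gene of insulin signalling, had the largest change, 1.66 ± 0.14. The ends at FAXC on chromosome 6 (99700000) and in a window with LHFPL3 and KMT2E on chromosome 7 (104540000) and the start in PLCG2, a phospholipase gene, on chromosome 16 (81900000) followed with 1.46 ± 0.14, 1.39 ± 0.14 and 1.31 ± 0.12. At PLCG2, contacts across went from 174 with 341 expected to 2579 with 2042 expected. All 4 were covered by a TAD in CTCF siRNA, as were 92.2% of all lost boundaries, a place that the rule favours. At FAXC and PLCG2 that TAD did not hold the middle of the flanking control TAD.

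**Figure D5:**
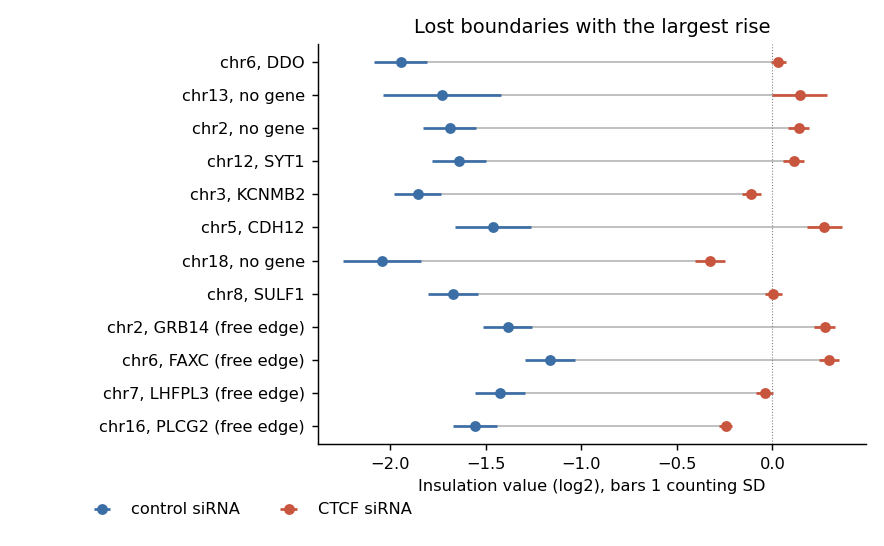
Insulation value (log2) in control siRNA and CTCF siRNA at the 8 joined and 4 free lost boundaries with the largest rise, labelled by chromosome and first overlapping gene; bars are 1 counting SD. The control values lie between -2.04 and -1.16 and the CTCF siRNA values between -0.33 and 0.30.

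A few boundaries left the list although their insulation value was lower in CTCF siRNA. The largest fall was -1.22 ± 0.16 at the TAD end at 243100000 on chromosome 1, from 0.23 to -0.99. Its downstream flank had too few usable bins for a value of its own, and no contacts across were counted for the 3 bins next to the boundary on that side in either map. Only pairs of usable bins were counted, so this does not show that contacts were absent. The next was -0.56 ± 0.11 at a TAD start at 29220000 on chromosome 22, near XBP1, a stress response factor gene, and ZNRF3. Then came -0.52 ± 0.09 at 20180000 on chromosome 11 (NAV2 and DBX1) and -0.48 ± 0.09 at 38020000 on chromosome 8, near STAR, the cholesterol transporter gene of steroid synthesis, and ASH2L. At this last position contacts across were not fewer, at 0.99 of expectation in control siRNA and 1.11 in CTCF siRNA. In these counts, not evened out for coverage, the lower value came from the flanks, which were higher by 0.67 and 0.60 on the log2 scale. At the positions on chromosomes 1, 8 and 22 a CTCF siRNA boundary lay 80 kb away, the smallest distance that counts as lost, and at that on chromosome 11 240 kb away.

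The largest side difference, 1.69, was that of the TAD start at 114420000 on chromosome 9, in a window with PTGR1 and GNG10, where the upstream edge's reach changed by 0.74 and the downstream edge's by -0.95. It was followed by 1.47 at FOXL2, a gonadal transcription factor gene on chromosome 3, and 1.36 at 40220000 on chromosome 13 (LHFPL6 and COG6). The lowest were -1.42 at 99780000 on chromosome 2, in a window with TSGA10 and MRPL30, -1.41 at ACBD6 on chromosome 1, and -1.26 at SCFD2 on chromosome 4. Both signs thus occurred at single boundaries with values far from the median of 0.08. These 6 were picked as extremes, at the listed bin only, and no counting error was computed for a side difference. The control counts behind it were as low as 28 and 32, at the boundary on chromosome 13. Of these 6, the boundaries on chromosomes 9, 3 and 13 and that of ACBD6 had a higher insulation value in CTCF siRNA, by 0.54 ± 0.13, 0.42 ± 0.10, 0.90 ± 0.19 and 0.78 ± 0.11. Those on chromosomes 2 and 4 had changes of -0.17 ± 0.11 and -0.16 ± 0.11, within 2 counting SD of 0.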

How the data were processed

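Per the methods and the submitters' processing notes, the authors checked reads with FastQC 0.11.2, mapped them to hg19 with HiCUP and Bowtie 1.1.0, tagged duplicates with Picard 1.121, handled alignments with SAMtools 1.2, pooled the libraries of each condition and called TADs from 40 kb bins with a directionality index and a hidden Markov model. The deposited contact values were read-pair counts times a factor per bin, other than 1 between positions 9400001 and 48120000. The factors were estimated and divided out, after which 99.986% (control siRNA) and 99.771% (CTCF siRNA) of such values were whole within 0.0101 plus 0.05% of the value. The design had assumed raw counts. Boundaries, contacts, GENCODE 44 genes and CTCF core matches were computed with Python 3.11.15, NumPy 2.4.6, pandas 2.3.3 and SciPy 1.17.1, after checks on simulated maps. Gene windows spanned the boundary and 1 bin on each side. Older gene symbols were matched through RefSeq names. The labelled siRNA set the group of a library. What separates CTCF siRNA replicates 1.1 and 2.1 from 1 and 2 is not given in the sources used here. For its analysis of boundaries the paper counts 2 independent experiments.

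The boundaries named are, with at least 50 contacts expected across and 1 per chromosome, the lost boundaries whose insulation value rose most (8 joined and 4 free) or fell most (4). The 3 largest and 3 lowest side differences needed at least 20 contacts in each count. The TAD with most lost boundaries, the longest run, and up to 4 genes of each gene list at lost boundaries were also named, and ELK4, which shares a boundary with SLC45A3, was added after its values were seen. Some named items are not reported here. The boundaries and the gene lists were chosen with earlier results of these data known. Intervals of medians (order statistics) and of shares (Wilson) cover the spread over boundaries, and those of single positions cover counting error only, at 95% confidence. Read pairs without molecular identifiers are not independent molecules.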

Additional observations from a re-analysis of the deposited data

How the results depend on the processing

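Requiring boundaries to touch gave a share lost of 60.3%, an insulation change of 0.55, 10.8 gene starts per Mb and 40.7% GC. Sharing within 80 kb gave a share lost of 42.3% with 93.6% inside 1 TAD. Sharing within 200 kb gave a share lost of 31.4%, a change of 0.63, 94.7% inside 1 TAD, 68.0% facing, a spacing of 440 kb, 8.18 gene starts per Mb and 39.6% GC. Joining only touching edges gave 40.1% facing and a spacing of 240 kb. Joining within 400 kb gave a share lost of 39.3%, a change of 0.67, 93.7% inside 1 TAD, 91.1% facing, a spacing of 520 kb, a side difference of 0.10, 8.81 gene starts per Mb and 39.97% GC. Flanks of 200 and 800 kb gave changes of 0.65 and 0.50 and side differences of 0.0375 and 0.105. Balanced counts gave a change of 0.56, and leaving out pairs of neighbouring bins 0.62. With 5 near bins the side difference was 0.0379, and with the boundary 20 kb later, chosen after seeing the data, 0.0084. Windows of 2 bins on each side held 9.27 gene starts and 5.25 core matches per Mb, and with lncRNA genes the starts were 17.1 per Mb. The cause of these shifts was not tested beyond the settings' own construction. No insulation change turned its sign, and deposited values, thinning to the control's depth, a stricter bin filter, a genome-wide expected value and positions without factors moved neither the change nor the side difference by more than their intervals. Thinning was applied to the contacts only, with the TAD lists as the authors called them, so it does not test which boundaries were lost. No paired analysis was possible because the authors pooled the libraries of each condition into 1 map, and for the same reason no library could be left out. Counting error limits single boundaries, with a median counting SD of 0.11 for the change at lost boundaries.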
